A study of Mus musculus with 2 samples.

Results

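Expression of 42 cell cycle genes was followed in single mouse liver cells 6 days after oncogenic NRAS had been introduced. The genes were taken by symbol from the 31054 gene rows of the library and divided by known function into 15 genes of S phase, 2 D cyclins and 25 genes of mitosis. Female C57BL/6 mice of 6 to 8 weeks received transposon plasmids by hydrodynamic tail vein (HDTV) injection, which delivers DNA to part of the hepatocytes. The CAGGS promoter drove NRAS together with the fluorescent protein mVenus, and a second plasmid carried the SB13 transposase in every mouse. NRAS(G12V) was given to 2 mice and NRAS(G12V/D38A), with a further change in the effector domain, to 1 mouse. All 3 mice therefore carried a construct, and no mouse without one was included. Cells of each mouse were marked with a hashtag (an antibody carrying a DNA barcode), sorted for mVenus, pooled and sequenced together as 1 gene expression library and 1 hashtag library.

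The cell cycle is driven by cyclin-dependent kinases, and each phase has its own cyclins. D cyclins are made in response to mitogens and RAS-MAPK signalling, and with CDK4 and CDK6 they inactivate RB and free E2F transcription factors. E2F then drives the genes of DNA replication, among them the MCM helicase, the replication clamp Pcna and the nucleotide-making enzymes Tyms, Rrm1 and Rrm2. Genes of mitosis follow later under B-MYB, FOXM1 and the MuvB complex, which binds a promoter element named CHR. Adult hepatocytes are mostly quiescent, and many are polyploid. Oncogene-induced senescence, the state the study set out to relate to RAS dose, is an arrest in which CDK inhibitors rise.

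Of 13151 barcodes, 13139 were found in both libraries and 10210 had at least 1000 UMIs (unique molecules), at least 500 genes and under 20% mitochondrial UMIs. Hepatocytes were the 8105 barcodes in which Alb, Apoa1, Apoa2, Ttr and Fgb made up at least 1% of UMIs and which passed no gate of another cell type. They held 111583010 UMIs in all. Only 1934 of them were called for 1 hashtag, 383 for hashtag 1, 1333 for hashtag 2 and 218 for hashtag 3, and 6078 were called for none. Their median depth differed greatly, with 12236, 41365 and 2545 UMIs for hashtags 1, 2 and 3. The deposited table gives hashtag 1 to the D38A mouse, whereas the study's methods give it hashtag 3, and only hashtag 2 is a G12V mouse in both. Mice are therefore named by hashtag. The Nras row of the mouse annotation took up reads of the construct, and in hepatocytes it stood at 1076, 818 and 821 CPM (UMIs per 1000000 UMIs) for hashtags 1, 2 and 3. Among deep hepatocytes, those of at least 10000 UMIs, it was at 1145, 829 and 1729 CPM, the last from only 13 cells. Comparisons by NRAS level were made within mice, among the 2252 deep hepatocytes, of which 211, 1115 and 13 belonged to hashtags 1, 2 and 3.

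All 42 members had at least 1 UMI in hepatocytes, and their levels ran from 0.0179 to 172 CPM. Ccnd1, which encodes cyclin D1 (chr7:144929931-144939925, mm10, minus strand), was by far the most abundant, with 19159 UMIs or 172 CPM. Ccnd2, which encodes cyclin D2 (chr6:127125162-127152193, minus strand), followed at 24.1 CPM. The 15 S phase members held 7720 UMIs together, from Cdc6, the helicase loader, with 6 UMIs to Tyms, thymidylate synthase, with 1919 (17.2 CPM). Pcna stood at 12.5, Mcm6 (chr1:128331590-128359664, minus strand) at 9.82 and Mcm7 at 8.79 CPM, whereas the other 4 subunits of the MCM2-7 helicase lay between 0.941 CPM (Mcm5) and 3.22 CPM (Mcm2). Of the 2 E cyclins, which act at the entry into S phase, Ccne1 reached 1.26 and Ccne2 0.341 CPM. The 25 mitosis members held 11586 UMIs. Spc24, a subunit of the NDC80 complex that ties kinetochores to microtubules (chr9:21755442-21760303, minus strand), was the highest of them at 14.3 CPM, followed by Ube2c, the ubiquitin-conjugating enzyme of the anaphase-promoting complex, at 13.6 CPM. Cenpa (9.26 CPM), the centromeric histone, Birc5 (9.23 CPM), which encodes survivin, and Cdk1 (9.04 CPM), the kinase of mitotic entry, came next, and the lowest was Pimreg with 2 UMIs. These CPM count 3′ molecules and need no correction for length. Reads of Ccnb1, Ccnb2, Tyms and Pcna can be shared with pseudogene copies, and Cdt1 overlaps another annotated gene on its own strand, so these 5 levels are less certain.

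The mitosis UMIs were not evenly spread over the hepatocytes. Of the 8105, 5723 held no UMI of any mitosis member and 1682 held UMIs of 1 gene, but 127 (1.57%) held UMIs of at least 8 of the 25 genes, and 1 held all 25. These 127 mitosis-rich cells carried 67.0% of all mitosis UMIs in hepatocytes. The limit of 8 genes was set after the counts had been seen. Just under it, 29 cells had 6 or 7 of the genes, and just over it 32 had 8 or 9. Mitosis-rich cells were found with every hashtag, at 10 of 383 hepatocytes for hashtag 1, 15 of 1333 for hashtag 2, 1 of 218 for hashtag 3 and 98 of 6078 without a called hashtag. Cells called for several hashtags, which are doublets of different mice, held 3 more among 93. Doublets within a mouse cannot be seen from hashtags.

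**Figure D1:**
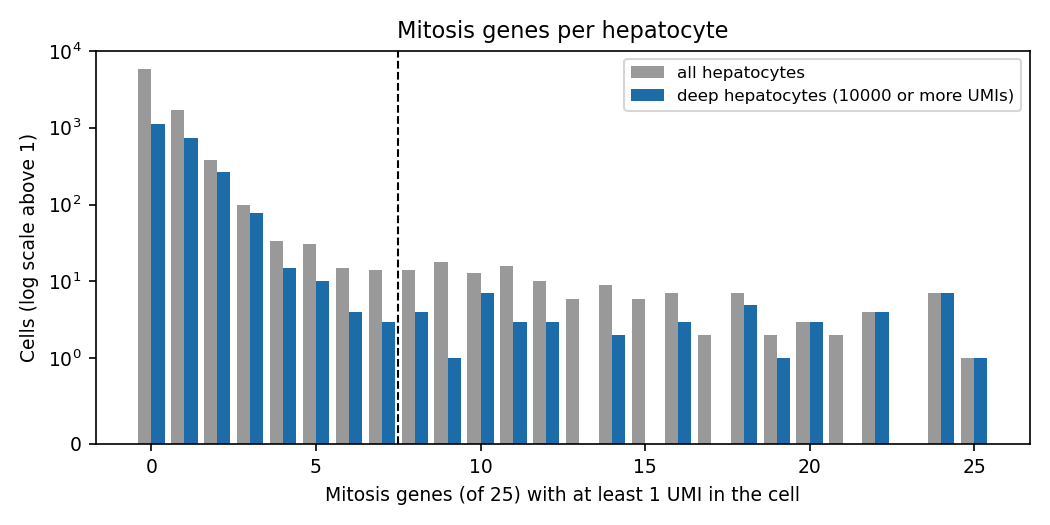
Number of the 25 mitosis genes with at least 1 UMI per cell (x axis) against the number of cells (y axis, log scale above 1), for all hepatocytes (grey) and deep hepatocytes (blue). The dashed line marks the limit of 8 genes, and most cells lie at 0, with 5723 of 8105 hepatocytes and 1104 of 2252 deep hepatocytes.

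The members differed widely in the part of their UMIs that came from mitosis-rich cells, which is a description, as the mitosis genes themselves chose those cells. For the mitosis members the median was 80.5%, reaching 91.6% for Ccnb1, which encodes cyclin B1, and 90.1% for Plk1, the polo-like kinase. Spc24 (25.5%) and Cenpa (36.8%) were the lowest of the 25. Among S phase genes, which were not used to choose the cells, Rrm2, the regulated subunit of ribonucleotide reductase, had 55.7% of its UMIs there and Mcm5 29.5%, against 2.92% for Mcm6 and a median of 7.89% for the group. For Ccnd1 and Ccnd2 it was 0.877% and 0.447%, below the 1.57% of cells that these were. Spc24 had a UMI in 1088 hepatocytes, and 695 of these (63.9%, 95% exact binomial interval 60.9 to 66.7) held no UMI of any of the other 24 mitosis genes.

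**Figure D2:**
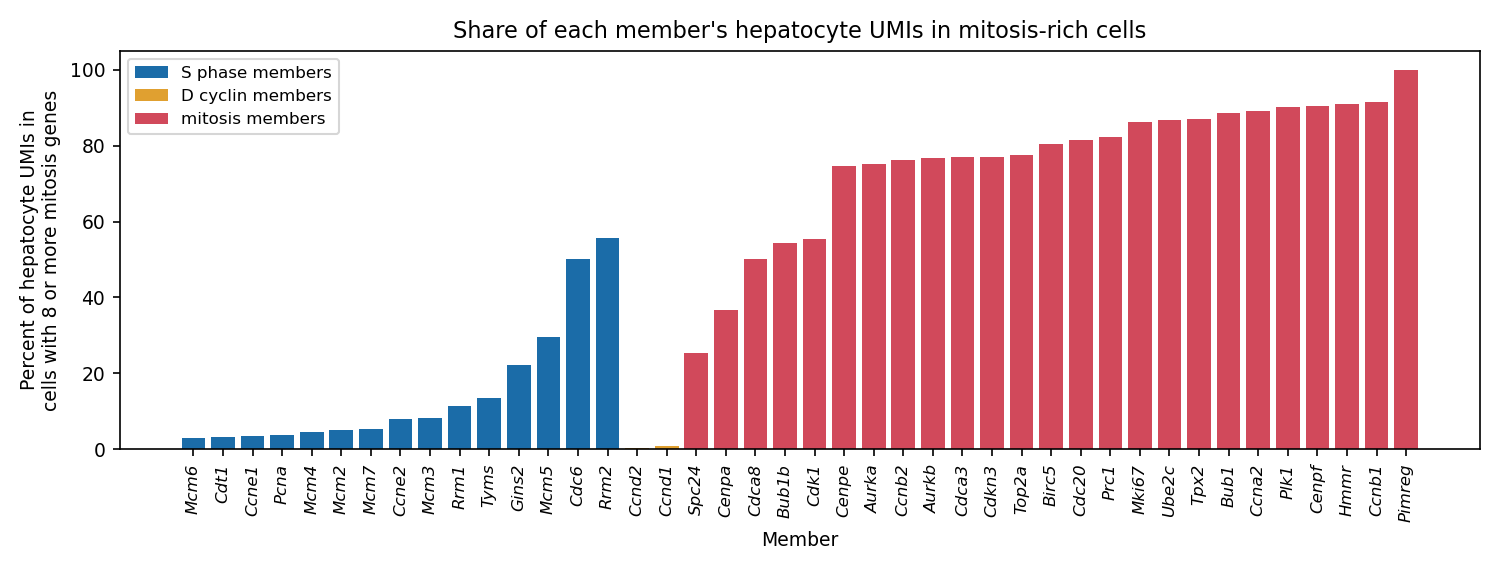
Percent of each member's hepatocyte UMIs that lay in the 127 cells with at least 8 mitosis genes (bars), for S phase members (blue), D cyclins (yellow) and mitosis members (red). Bars of mitosis members run from 25.5% for Spc24 to 100% for Pimreg, which rests on 2 UMIs, and both D cyclins are under 1%.

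Among deep hepatocytes, 44 of 2252 (1.95%) were mitosis-rich. Birc5 and Cdca3, a trigger of mitotic entry, were each detected in 43 of the 44, Cdkn3, a CDK-binding phosphatase, and Spc24 each in 41, and Ube2c in 38. In the other 2208 deep hepatocytes Spc24 was detected in 18.1%, Cenpa in 17.7% and Cdk1 in 10.3%, whereas Ube2c, Birc5, Cdkn3 and Cdca3 were each in under 3%. Genes that had not chosen the cells were also more frequent in them. Nusap1, a spindle protein outside the 42, was found in 27 of 44 against 4 of 2208, and Rrm2 in 30 of 44 against 3.94%. The median cell held 12 of the 28 other mitosis genes listed, against 4 in the rest, and 304 against 52.8 CPM of the S phase members. The replication gene Gins2 was in 24 of 44 (against 6.70%) and Tyms reached 112 against 12.7 CPM, but Mcm6 was at 11.1 against 10.4 CPM. D cyclins went the other way, with Ccnd1 at 78.6 against 180 CPM and Ccnd2 at 5.28 against 27.1 CPM. Hepatocyte markers made up a median of 10.9% of UMIs in the mitosis-rich deep cells against 6.54% in the rest, and the median Nras level was 47.6 against 87.8 CPM. The median depth was 34899 against 39891 UMIs, and the median mitochondrial share 6.10% against 8.49%. In the 83 shallow mitosis-rich cells the hepatocyte markers had a median of 2.42%, against 2.30% in other shallow hepatocytes, and the mitochondrial share 0.271% against 0.295%. Markers of endothelial cells, macrophages, conventional dendritic cells, T or NK cells and B cells had medians of 0 in both groups of deep cells, stellate markers had 21.1 against 0 CPM and those of plasmacytoid dendritic cells 71.7 against 253 CPM. Cells are not replicates, so no test was made between these cells.

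The promoters were read to see what the members share in sequence. A window from 250 bases before to 50 bases after the start site was found for 32 of the 42 members in the RefSeq table of the GRCm38.p6 build, of which mm10 is the UCSC release. It held none for Spc24, Ccnd1, Ccnd2, Aurkb, Mcm4, Pimreg, Gins2, Ccna2, Ccne2 and Tpx2. Each window was searched on both strands for the CHR (TTTGAA or TTCGAA), for CCAAT and for E2F sites (TTTGGCGC, TTTCCCGC, TTTGGCGG or TTTCCCGG). A CHR was found in 17 of 20 mitosis members (85%), 2 of 12 S phase members and 21.7% of the 27025 genes with such a window. All 17 mitosis members with a CHR also had a CCAAT, a pair found in 9.65% of all genes. An E2F motif was found in 6 of 12 S phase members (50%), 1 of 20 mitosis members (Birc5) and 3.79% of all genes. CCAAT was common to both groups, in 8 of 12 and 19 of 20, against 41.1% of genes. A match describes these letters and does not show binding. Printed here are 4 promoters, 5′ to 3′ on the strand of the gene, with motifs in capitals. Pcna (chr2:132253131-132253430, minus strand) and Ube2c (chr2:164769679-164769978, plus strand) are those of the S phase and the mitosis member with the most UMIs among those with a motif. Mcm6 (chr1:128359656-128359955, minus strand) and Cdc20 (chr4:118437294-118437593, minus strand) were added after their values were seen, as the S phase member that rose with Nras and a mitosis member that fell.
Pcna: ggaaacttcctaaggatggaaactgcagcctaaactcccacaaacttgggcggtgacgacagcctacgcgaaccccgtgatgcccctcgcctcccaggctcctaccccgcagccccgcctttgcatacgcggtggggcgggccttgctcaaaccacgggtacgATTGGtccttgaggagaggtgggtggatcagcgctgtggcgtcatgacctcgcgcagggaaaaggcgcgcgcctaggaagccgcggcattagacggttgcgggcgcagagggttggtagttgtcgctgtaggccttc
Mcm6: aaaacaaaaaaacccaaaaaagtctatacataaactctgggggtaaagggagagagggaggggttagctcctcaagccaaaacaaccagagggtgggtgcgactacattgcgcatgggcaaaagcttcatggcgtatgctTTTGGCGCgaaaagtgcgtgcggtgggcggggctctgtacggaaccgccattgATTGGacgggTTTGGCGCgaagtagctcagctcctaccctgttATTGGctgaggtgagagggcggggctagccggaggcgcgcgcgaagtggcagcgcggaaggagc
Ube2c: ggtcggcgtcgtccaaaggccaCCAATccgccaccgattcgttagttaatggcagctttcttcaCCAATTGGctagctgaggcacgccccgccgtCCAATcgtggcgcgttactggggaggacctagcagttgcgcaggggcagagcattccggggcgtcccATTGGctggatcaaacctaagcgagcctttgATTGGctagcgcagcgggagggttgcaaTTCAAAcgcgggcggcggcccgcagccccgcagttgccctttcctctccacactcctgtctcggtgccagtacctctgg
Cdc20: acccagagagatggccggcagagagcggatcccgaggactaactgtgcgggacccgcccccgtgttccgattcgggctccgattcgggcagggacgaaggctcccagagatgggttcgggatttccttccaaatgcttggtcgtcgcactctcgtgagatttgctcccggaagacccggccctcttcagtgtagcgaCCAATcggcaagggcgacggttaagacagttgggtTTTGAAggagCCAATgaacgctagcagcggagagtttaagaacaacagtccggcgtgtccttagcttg
In these windows Pcna held 1 CCAAT and no E2F motif, while Mcm6 held 2 of the 8-base E2F motif TTTGGCGC. Ube2c held 6 CCAAT matches, of which a pair overlaps on opposite strands, and 1 CHR, and Cdc20 held 2 CCAAT and 1 CHR, with the CHR between both CCAAT.

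To ask how the members follow the Nras level, deep hepatocytes were divided by Nras CPM into baseline (under 300), low (300 to 1000), intermediate (1000 to 3000) and high (3000 or more) bins. Although the cells had been sorted for mVenus, 1675 of the 2252 deep hepatocytes were in the baseline bin. Hashtag 1 had 134, 30, 24 and 23 cells in the 4 bins and hashtag 2 had 816, 137, 92 and 70. The 11 baseline cells of hashtag 3 entered the fit, but its 2 high cells were too few to be summed. Each difference therefore rests on the mice of hashtags 1 and 2. Under the deposited pairing hashtag 1 is the D38A mouse, whose construct the paper describes as non-oncogenic. The 2 mice would then differ in genotype, and the bins of hashtag 1 would be levels of that construct. UMIs were summed per mouse and bin and tested with edgeR's quasi-likelihood test, with the mouse as a block. In the high bin, 3 of the 31 members tested were higher than at baseline and 4 were lower (adjusted p under 0.05), where 12.3% of the 11363 genes tested were higher and 12% lower. Both D cyclins and Mcm6 rose, and Spc24, Cdc20, Cdkn3 and Birc5 fell. In the intermediate bin 2 members were higher and 0 lower by edgeR, against 9.78% and 9.76% of all genes, and 1 was lower at an unadjusted p under 0.05 and 0 by DESeq2's Wald test. These 2 were Ccnd1 and Mcm6. The 11 members with too few counts for the test were Cdc6, Ccna2, Cenpe, Cenpf, Aurka, Aurkb, Bub1, Bub1b, Plk1, Tpx2 and Pimreg.

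Ccnd1 was at 123 CPM at baseline, 269 in the low, 282 in the intermediate and 321 in the high bin for hashtag 1. For hashtag 2 it was at 123, 229, 316 and 392 CPM. Cells without a hashtag, which were not in the test, gave 128, 248, 269 and 300 CPM. In each of the 3 series the step from baseline to low was the largest, and every bin with Nras lay above every baseline. The log2 fold change was 1.55 ± 0.13 (SE) in the high bin, with an adjusted p of 2.58e-06 (edgeR), and 1.30 ± 0.13 in the intermediate bin, with 1.65e-05. The sum over the 2 cells of hashtag 3 in the high bin, left out of the test, was 768 CPM against 87.4 CPM at baseline, from 75 and 24 UMIs of Ccnd1.

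The rise of Ccnd2 was smaller in size. It was at 16.5, 24.0, 27.2 and 43.7 CPM from baseline to high for hashtag 1, and at 26.0, 31.2, 30.8 and 37.8 CPM for hashtag 2. Cells without a hashtag gave 21.9, 33.9, 34.9 and 31.8 CPM. The high bin was above baseline in each series, but by 2.65-fold for hashtag 1 and 1.45-fold for hashtag 2, and the bins between were not in the same order. The log2 fold change was 0.82 ± 0.19 (SE), with an adjusted p of 0.00661 (edgeR). It missed the threshold when hashtags were called by a fixed count rule (0.59, adjusted p 0.0545) or the hepatocyte gate was set at 5% (0.59, adjusted p 0.168).

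Among the S phase members, 14 of 15 were tested and Mcm6 alone passed the threshold. It was at 6.56, 6.77, 11.0 and 20.6 CPM for hashtag 1 and at 8.02, 9.28, 18.3 and 20.9 CPM for hashtag 2, from baseline to high. Cells without a hashtag gave 8.65, 11.8, 14.9 and 29.3 CPM, in the same order. Unlike Ccnd1, Mcm6 stood close to baseline in the low bin. The log2 fold change was 1.46 ± 0.21 (SE) in the high bin (adjusted p 2.13e-04, edgeR) and 1.08 ± 0.20 in the intermediate bin (adjusted p 0.00211). The other 5 MCM subunits gave log2 fold changes from −0.32 ± 1.16 (Mcm5) to 0.83 ± 0.62 (Mcm4) in the high bin, and whether they differ from Mcm6 was not tested. Mcm7, the best counted of them, was at 8.75 and 7.72 CPM at baseline and high for hashtag 1 and at 7.96 and 7.13 CPM for hashtag 2. Pcna gave a log2 fold change of 0.32 ± 0.22 and Tyms −0.20 ± 0.23. Rrm2 had 1 UMI in the high bins of hashtags 1 and 2 together against 93 at baseline (ratio 0.0804, 95% counting interval 0.00201 to 0.459), but its adjusted p was 0.0547. Ccne2 had 0 against 10 UMIs, with an adjusted p of 0.443. The median of the 14 was −0.15, against −0.03 over all genes. With the 5% hepatocyte gate, which left 6 and 24 high cells for hashtags 1 and 2, Mcm6 gave 0.75 in the high bin (adjusted p 0.402) and −0.39 in the intermediate bin (adjusted p 0.802).

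**Figure D3:**
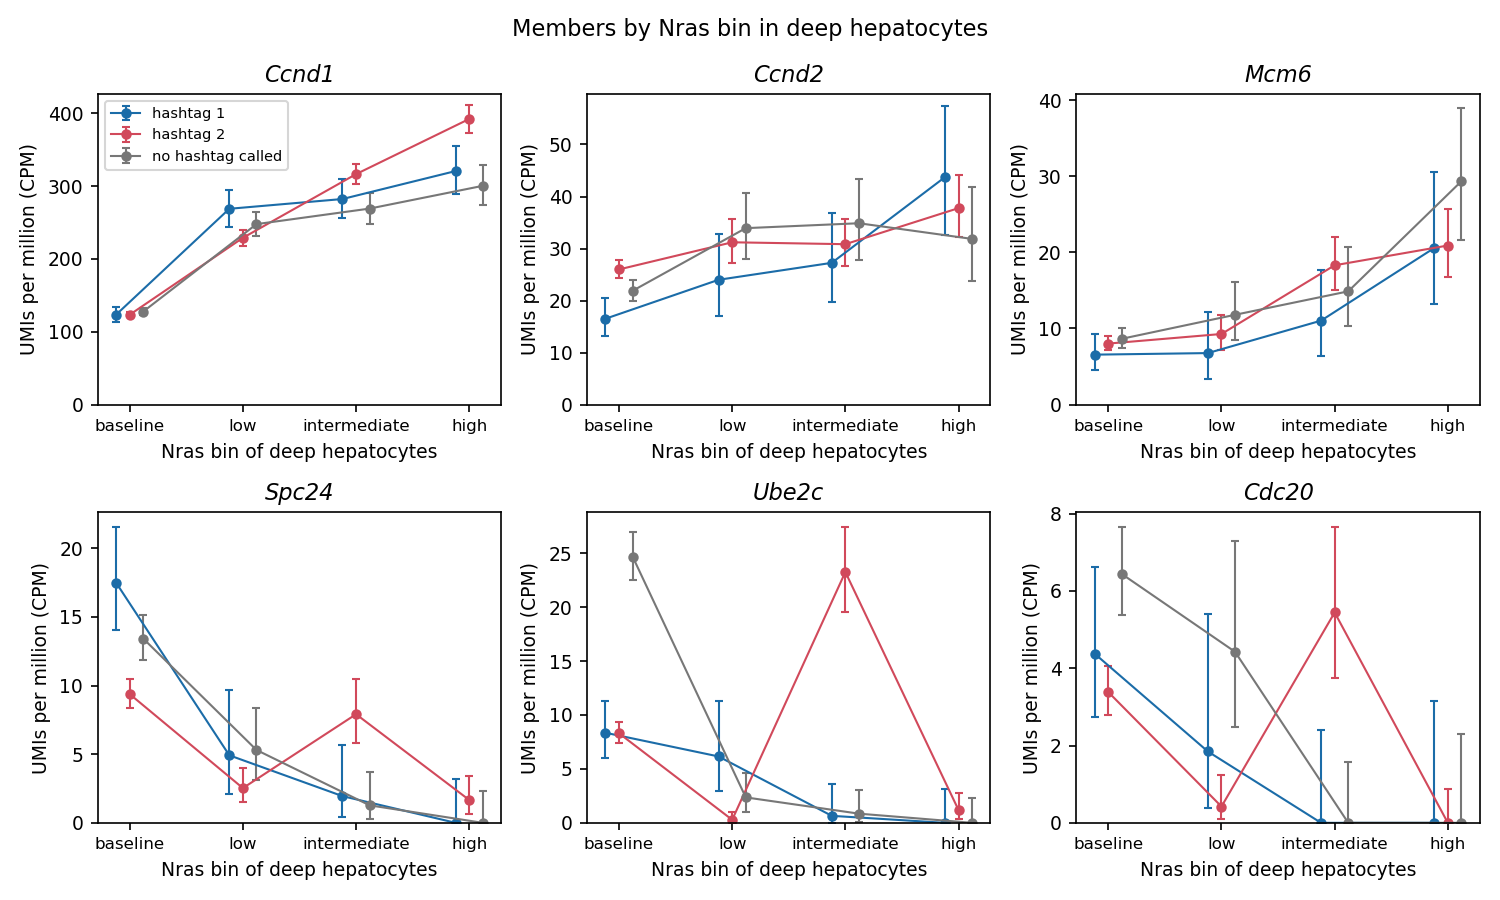
CPM (UMIs per 1000000 UMIs, y axis) of 6 members in deep hepatocytes by Nras bin (x axis), for the mice of hashtags 1 and 2 and for cells without a called hashtag. Bars are exact 95% Poisson intervals and cover counting error only. Ccnd1 rises from 123 CPM at baseline to 321 and 392 in the high bin, and Spc24 falls from 17.5 and 9.38 to 0 and 1.66 for hashtags 1 and 2. The intermediate values of Ube2c and Cdc20 for hashtag 2 rest mostly on 2 cells.

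In the high bin 4 of the 15 mitosis members tested fell. Spc24 was at 17.5, 4.92, 1.95 and 0 CPM from baseline to high for hashtag 1, at 9.38, 2.53, 7.91 and 1.66 CPM for hashtag 2, and at 13.4, 5.31, 1.28 and 0 CPM without a hashtag. Every bin lay below its own baseline, although hashtag 2 rose again in the intermediate bin. Summed over hashtags 1 and 2, 7 UMIs in the high bin against 418 at baseline gave a ratio of 0.125 (95% counting interval 0.050 to 0.260), and the adjusted p was 0.00322 (edgeR). Without the mitosis-rich cells, which Spc24 had helped to choose, it also passed in the high bin, with a log2 fold change of −2.64 ± 0.53 (adjusted p 0.00284). In the intermediate bin it gave −0.86 ± 0.41 (adjusted p 0.180) with all cells and −1.83 ± 0.42 (adjusted p 0.00839) without them. Cdc20, the activator of the anaphase-promoting complex, had no UMI in the high bins of hashtags 1 and 2 against 141 at baseline and was at least 6.28-fold lower, with the floor set at 3 counts over both mice (adjusted p 0.0227). Cdkn3 had 1 UMI against 267 (ratio 0.0280, 95% counting interval 0.000707 to 0.157, adjusted p 0.0144) and Birc5 4 against 281 (ratio 0.106, adjusted p 0.0272). Without the mitosis-rich cells neither passed, at adjusted p of 0.106 for Cdkn3 and 0.690 for Birc5 (edgeR). Cdc20 was not called without them either, and Spc24 was the only member called lower there. These cells held 77.0%, 81.5% and 80.5% of the hepatocyte UMIs of Cdkn3, Cdc20 and Birc5, against 25.5% for Spc24. All 4 genes had helped to choose the cells, and none of the cells was in the high bin. The choice thus largely fixed which calls were lost. Ube2c had 5 UMIs against 334, with an adjusted p of 0.0743, and Cdk1 9 against 222, with 0.0574. Cdca8, a subunit of the chromosomal passenger complex, was at 2.60 CPM in the high bin and 2.61 CPM at baseline. Of the 15 mitosis members tested, 8 had at most 3 UMIs in the high bins. The summed CPM ratios of the 15 were all below 1, and the median log2 ratio was −2.25 with members at 0 set to their bound, whereas the median of the fit was −2.94 and that of all genes −0.03. These are descriptions, since members seen mainly at baseline passed the filter on low counts through the baseline sums.

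Mitosis-rich cells were also counted by bin, over all deep hepatocytes. There were 38 among 1675 baseline cells (2.27%, 95% exact binomial interval 1.61 to 3.1), 4 among 265 low and 2 among 177 intermediate cells. None was found among 135 high cells, and the same kind of interval there, 0 to 2.70%, includes the baseline share. The mice did not follow the same order, with 5 of 134, 2 of 30, 0 of 24 and 0 of 23 cells for hashtag 1 and 10 of 816, 0 of 137, 2 of 92 and 0 of 70 for hashtag 2. These shares were not tested. After each cell was thinned to 10000 UMIs, 3.16%, 1.89%, 1.13% and 0% of cells from baseline to high had at least 3 mitosis genes, where the unthinned shares were 7.10%, 6.42%, 3.95% and 7.41%. Over all 25 genes, hashtag 1 went from 91.4 to 53.5, 10.4 and 16.3 CPM and hashtag 2 from 71.5 to 18.1, 114 and 17.6 CPM. In the intermediate bin of hashtag 2, 615 of 693 mitosis UMIs came from 2 cells. Without mitosis-rich cells the same values were 39.2, 19.3, 10.4 and 16.3 CPM for hashtag 1 and 22.6, 18.1, 13.2 and 17.6 CPM for hashtag 2. Other measures moved with the bins. Median depth was 36831, 48234, 60412 and 53515 UMIs from baseline to high, the hepatocyte markers fell from 9.24% to 4.78% of UMIs, and mVenus rose from 8.14 to 394 CPM. The 6 markers of plasmacytoid dendritic cells rose from 851 to 1782 CPM, but Ly6d alone held 119315 of their 119361 UMIs in hepatocytes. The part of depth and of hepatocyte markers in the members' changes was not tested. When cells under 2% mitochondrial UMIs were left out, the counts were again 3 higher and 4 lower, with Spc24 at −2.90 (adjusted p 0.00260).

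The other cell cycle genes listed, 83 in 5 groups, gave a background for these changes. Of 7 CDK inhibitors, all tested, 2 were higher and 2 lower in the high bin. Cdkn2b, the inhibitor of CDK4 and CDK6 beside Cdkn2a, went from 101 to 384 CPM for hashtag 1 and from 88.5 to 377 CPM for hashtag 2 (log2 fold change 2.03 ± 0.12, adjusted p 2.07e-07, edgeR), and Cdkn1a, an inhibitor induced by p53, rose by 0.74 ± 0.12. Cdkn2c (−1.09 ± 0.19) and Cdkn1b (−0.71 ± 0.22) were lower. Cdkn2a, which encodes INK4A and ARF, passed in the intermediate bin, at 1.75 ± 0.42 (adjusted p 0.0109), and gave 1.28 ± 0.48 (adjusted p 0.0757) in the high bin. Of 8 other CDKs and cyclins, 3 were higher. They were Cdk6 (1.18 ± 0.13), the kinase partner of D cyclins, Ccng2 (0.69 ± 0.21) and Ccng1 (0.43 ± 0.14). Of 21 other S phase genes tested, 0 were higher by edgeR (0 also at an unadjusted p under 0.05 and by DESeq2's Wald test) and 5 were lower, against 12% of all genes. Thymidine kinase Tk1 (−2.01 ± 0.42) and the primase Prim1, with 2 UMIs against 121 (ratio 0.124, 95% counting interval 0.0148 to 0.456), were among them. Mcm10, a replication initiation factor, had no UMI against 69 and was at least 3.08-fold lower. None of the 13 other mitosis genes tested and none of the 12 RB and E2F regulators passed by edgeR, 0 also at an unadjusted p under 0.05 and by DESeq2's Wald test, and their median log2 fold changes were −0.30 and −0.02.

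Since depth differed so widely, the members were also compared between deep and shallow hepatocytes (1000 to 10000 UMIs) of the 3 mice. The test used only cells called for 1 hashtag, with 211, 1115 and 13 deep and 172, 218 and 205 shallow cells for hashtags 1, 2 and 3, whereas 5227 of the 5853 shallow hepatocytes had no hashtag. Of 9 members tested, 1 was higher in deep cells and 4 lower, where 30.5% of 6653 genes were higher and 26.0% lower. Spc24 was at 10.6 CPM in deep and 29.1 CPM in shallow cells of hashtag 1, at 7.67 and 33.2 CPM for hashtag 2 and at 10.7 and 48.5 CPM for hashtag 3. Deep cells were thus lower in every mouse (log2 fold change −1.77 ± 0.25, SE, adjusted p 1.83e-04, edgeR). Cdkn3 (−1.57 ± 0.50, adjusted p 0.0207), Ube2c (−1.40 ± 0.44, adjusted p 0.0194) and Cenpa (−1.36 ± 0.34, adjusted p 0.00647) were lower as well. Ccnd1 was higher in deep cells, at 199, 181 and 266 CPM against 102, 141 and 130 CPM for hashtags 1, 2 and 3 (0.83 ± 0.15, adjusted p 7.50e-04). Among baseline cells alone, where 28.4% of genes were higher and 23.1% lower, Ccnd1 gave 0.05 with an adjusted p of 0.848, and of 8 members tested 0 were higher (0 also at an unadjusted p under 0.05) and 3 lower. Without hashtag 1, Cenpa and Ube2c missed the threshold, at adjusted p of 0.0861 and 0.0816. With hashtags called by the fixed rule, none of 15 members passed this test (1 was lower at an unadjusted p under 0.05), and at a gate of 5% none of the 2 that could be tested did. In the 83 other genes Mcm10 (−3.17 ± 0.64) and Tk1 (−2.06 ± 0.25) were lower in deep cells, and Cdkn2b (2.83 ± 0.30), Cdkn1a (1.51 ± 0.17) and Cdk6 (1.49 ± 0.21) higher. Deep baseline cells enter both this comparison and the one by Nras.

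**Figure D4:**
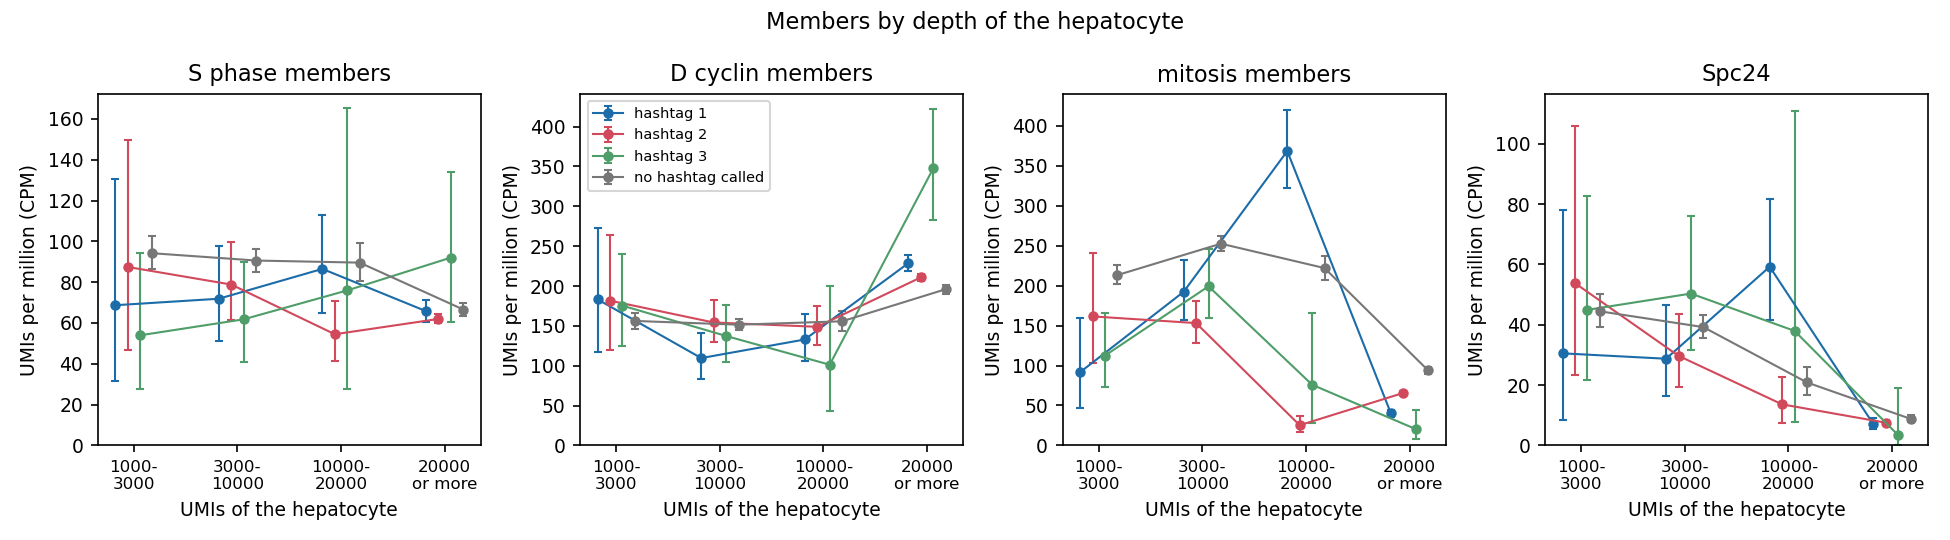
CPM (UMIs per 1000000 UMIs, y axis) of the 3 groups of members and of Spc24 in hepatocytes of 4 depth classes (x axis, UMIs of the cell), for hashtags 1 to 3 and cells without a called hashtag. Bars are exact 95% Poisson intervals. Spc24 stands at 7.09, 7.55, 3.41 and 8.81 CPM at 20000 UMIs or more for hashtags 1, 2, 3 and none, below every other class of the same series. The value of hashtag 3 there comes from only 7 cells.

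Over all hepatocytes, the mitosis members stood at 205, 240, 200 and 69.8 CPM at 1000 to 3000, 3000 to 10000, 10000 to 20000 and 20000 or more UMIs. Without mitosis-rich cells they fell steadily, from 136 to 81.7, 40.8 and 20.3 CPM. Leaving these cells out removed 34.4%, 66.8%, 80.3% and 71.4% of the mitosis UMIs in the 4 classes. The limit of 8 detected genes thus did not act alike at each depth, and its part in this fall was not tested. After thinning to 2000 UMIs, which left out 2023 shallower cells of the first class, 16.7%, 16.0%, 12.3% and 5.25% of cells had a mitosis UMI, against 15.3%, 28.9%, 35.1% and 54.6% unthinned. The S phase members changed less, at 91.7, 87.9, 82.7 and 63.9 CPM, and the D cyclins were at 158, 150, 149 and 209 CPM. The mitochondrial share moved with depth. Its median was 0.364%, 0.191%, 2.28% and 8.69% in the 4 classes. Within 1 depth class the members still differed with it. At 10000 to 20000 UMIs, 205 cells under 2% mitochondrial UMIs had Spc24 at 42.9 CPM (95% Poisson interval 35.4 to 51.5), against 7.33 CPM (4.65 to 11.0) in the 217 other cells, whose median depth was 13892 against 12627 UMIs. The mitosis members stood at 384 against 40.5 CPM, or at 66.9 against 19.4 CPM without mitosis-rich cells, of which there were 12 and 3. At 20000 UMIs or more only 23 cells were under 2%, and they too had Spc24 at 34.4 CPM against 7.66 CPM in 1807 cells. At 1000 to 3000 UMIs Spc24 was at 46.0 against 27.2 CPM. Ccnd1 went the other way at 10000 to 20000 UMIs, at 103 against 153 CPM. The limit of 2% was chosen after the data were seen, the cells carry mixed hashtags, and no test was made. Low-mitochondrial cells were mostly without a hashtag, 154 of the 205 and 2907 of 3043 in the shallowest class. With at least 2% mitochondrial UMIs required, only 2 members could be tested for depth, and neither was lower.

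The same members were set against the other cell types that the sort had carried along. Endothelial cells (553 barcodes, 465 of them of hashtag 3), conventional dendritic cells (663), T or NK cells (78), B cells (40), macrophages (38), stellate cells (18), plasmacytoid dendritic cells (18) and neutrophils or monocytes (7) were gated by markers that include none of the 42. Barcodes that passed the hepatocyte gate and another gate numbered 395 and were left out. The mitosis members stood at 104 CPM in hepatocytes, 701 in endothelial cells, 240 in conventional dendritic cells, 363 in macrophages and 201 in T or NK cells. Mitosis-rich cells were 19 of 553 endothelial and 24 of 663 conventional dendritic cells, and without them the 3 largest types fell to 34.9, 139 and 55.5 CPM. In B cells 1 cell took the level from 155 to 695 CPM. D cyclins were at 569 CPM in endothelial, 214 in conventional dendritic cells and 196 in hepatocytes, and S phase members at 228, 115 and 69.2 CPM.

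**Figure D5:**
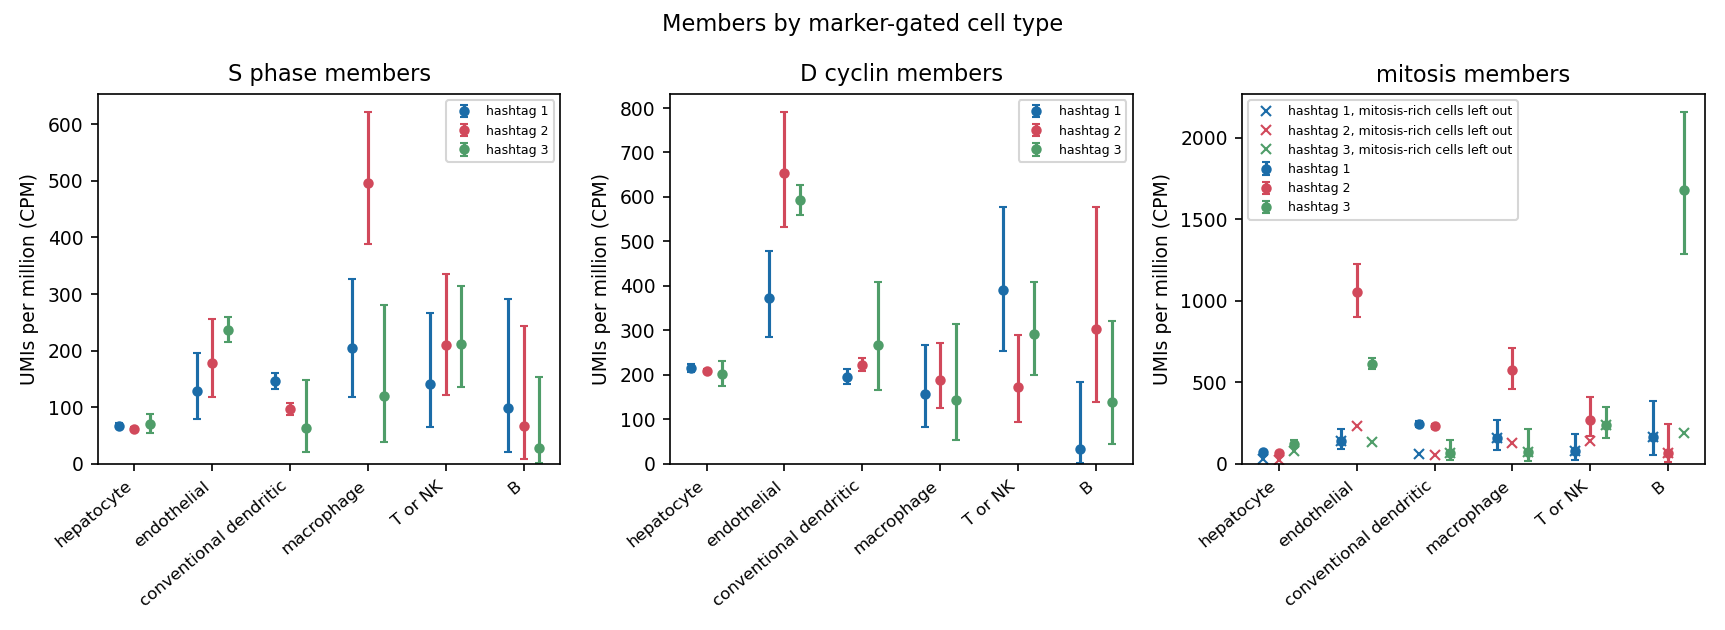
CPM (UMIs per 1000000 UMIs, y axis) of the 3 groups of members by marker-gated cell type (x axis) and hashtag, for sums of at least 5 cells. Circles are all cells with exact 95% Poisson intervals, and crosses in the last panel leave out mitosis-rich cells. Hepatocytes stand at 69.7, 66.6 and 120 CPM for mitosis members in hashtags 1, 2 and 3, and endothelial cells at 141, 1052 and 614 CPM.

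Against the mean of the other types, 6 members could be tested, 1 was higher in hepatocytes (Ccnd1, log2 fold change 1.19 ± 0.32, adjusted p 0.00467, edgeR) and 1 lower (Ccnd2, −1.50 ± 0.48, adjusted p 0.0150), where 31.1% of 4030 genes were higher and 9.58% lower. The median of all genes in this fit was 0.36, and 0.50 with DESeq2's size factors, and the value of Ccnd1 is to be read against that median. Without hashtag 3, which held most endothelial cells, Ccnd2 gave 0.23 (adjusted p of 1). Because sums of few cells left most members untested, endothelial and conventional dendritic cells were each also taken as the only other type, a choice made after the data were seen. Against endothelial cells 0 of 27 members were higher by edgeR (0 also at an unadjusted p under 0.05) and 13 were lower, where 23.7% and 21.4% of 9786 genes were. Members as low in hepatocytes as Mcm3 or Pimreg passed the filter on low counts through the endothelial sums. Such members could hardly be called higher, so these counts are a description. Mcm3 was at 1.89, 1.19 and 1.94 CPM in hepatocytes and 48.9, 50.7 and 50.8 CPM in endothelial cells of hashtags 1, 2 and 3 (−4.23 ± 0.50, adjusted p 1.46e-05). Pimreg had 1 UMI in hepatocytes and 39 in endothelial cells of the 3 mice (ratio 0.000931, 95% counting interval 2.30e-05 to 0.00550), and Ccna2, which encodes cyclin A2, gave −4.27 ± 1.02. Cenpf, Prc1, Mki67, Cenpa, Aurkb, Hmmr, Tpx2, Top2a, Ccnd2 and Ccnb2 were the others. Ccnd2 was at 22.9, 28.0 and 23.3 CPM in hepatocytes and 190, 304 and 300 CPM in endothelial cells, with no overlap. Ccnd1 was at 193, 181 and 179 CPM against 183, 349 and 292 CPM, which overlap. It gave 0.21 ± 0.34 (adjusted p 0.641) after TMM scaling and −0.55 ± 0.35 (adjusted p 0.201) with library size alone, so that its direction depended on the scaling. Library size alone, a choice made after the data were seen, moved the median of all genes in this fit from 0.03 to −0.72, and 20 of the 27 members were then lower. The share of all genes lower there was not worked out, so this count cannot be set against it.

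Against conventional dendritic cells 23 of 31 members were lower and 2 higher, where 23.5% of 10423 genes were lower and 44.5% higher. Members as low in hepatocytes as Mki67 passed the filter on low counts through the dendritic sums, so these counts too are a description. The proliferation marker Mki67 was at 1.59, 1.64 and 1.94 CPM in hepatocytes of hashtags 1, 2 and 3, and at 24.5, 27.7 and 0 CPM in dendritic cells, of which hashtag 3 had only 8 (−3.93 ± 0.29, adjusted p 1.29e-08). Topoisomerase Top2a gave −3.91 ± 0.31 and Mcm5 −3.43 ± 0.47. Ccnd1 (0.81 ± 0.29, adjusted p 0.0218) and Cdkn3 (1.24 ± 0.42, adjusted p 0.0155) were higher in hepatocytes, where the median of all genes was 0.47. With DESeq2's size factors that median was 0.09, and neither passed, at adjusted p of 0.262 and 0.0988. Without mitosis-rich cells, 3 of 11 members tested were lower than in endothelial cells (Mcm3, Cenpa and Ccnd2), where 21.4% of 9659 genes were lower and 23.7% higher. Of 17 members tested against dendritic cells 9 were lower, where 28.2% of 10310 genes were lower and 33.4% higher. Spc24 was called higher than in endothelial cells (2.40 ± 0.62, adjusted p 0.00562, edgeR). The mitosis members, Spc24 among them, had chosen the cells left out. Those cells held 81.1% of the mitosis UMIs in endothelial cells and 67.0% in hepatocytes, so this call is a description. With those cells included, Spc24 was at 11.8, 8.15 and 34.9 CPM in hepatocytes against 6.11, 19.0 and 23.7 CPM, so that hashtag 2 went against the other 2 mice. The endothelial values of hashtags 1 and 2 rest on few counts, from 21 and 35 cells with 163572 and 157739 UMIs of all genes.

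Between the groups of mice no test was possible, with 1 D38A mouse. In hepatocytes, Ccnd1 was at 193, 181 and 179 CPM for hashtags 1, 2 and 3 and Ccnd2 at 22.9, 28.0 and 23.3 CPM. All of these lay within the 2-fold limit used here, whichever hashtag is the control. Of 8 members with at least 10 CPM in a mouse, none was at least 2-fold higher or lower in both G12V mice under the deposited pairing, where 0.0281% of 7130 genes were higher and 0.393% lower. Under the pairing of the methods none was higher and Spc24 was lower, at 11.8 and 8.15 CPM against 34.9 CPM, where 10.9% were higher and 5.65% lower. Hashtag 3, the mouse with the higher Spc24, was also the shallowest. In deep cells alone Spc24 was at 10.6, 7.67 and 10.7 CPM and no member passed under either pairing. The deep value of hashtag 3 comes from only 13 cells with 372421 UMIs of all genes together. Ube2c was at 6.47, 8.55 and 13.6 CPM and Cdk1 at 5.97, 5.15 and 11.6 CPM, with 12 UMIs of Cdk1 for hashtag 3. Genotype and depth cannot be told apart here.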

How the data were processed

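The authors aligned 10x Genomics 3′ v3 reads to mm10 with Cell Ranger (2.1.1 in the submitters' processing notes, with other versions named in the file header and the study) and deposited raw UMI counts per gene and barcode. They counted hashtags with CITE-seq-Count without mismatches and deposited these UMI counts as a table of their own. Sequencing lanes were merged by the authors. The members and the lists of other genes were chosen with earlier results of these data known.

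Hashtags were called in Seurat (5.3.0) by HTODemux at a quantile of 0.99. Barcodes of at least 1000 UMIs, at least 500 genes and under 20% mitochondrial UMIs were kept. A cell of another type had at least 3 markers detected and at least 0.1% of its UMIs from them. No doublet caller was run, and barcodes of several hashtags entered no test. The rows of Nras, mVenus and hashtags were left out of library sizes. UMIs were summed per hashtag and class over at least 5 cells, scaled by TMM, filtered by filterByExpr and tested with edgeR (4.0.16, glmQLFit and glmQLFTest, 2-sided, Benjamini-Hochberg over all genes), with the mouse as a block. Same-numbered sums were taken as the same mouse because they carry the same hashtag. Which cells they hold depended on the hashtag calling. The fixed count rule gave 1473, 434 and 83 hepatocytes for hashtags 1, 2 and 3, against 383, 1333 and 218 with HTODemux. A gene counted as changed at an adjusted p under 0.05. Fits were tested on simulated data beforehand. The genes named are all members called, with the most abundant of each group and at most 4 called genes of each other list. A gene of those lists that this rule would name is not reported here. Mitosis-rich cells, the mitochondrial limit and the fits against a single cell type were chosen after the data were seen. Depth was 10051298, 53595452 and 1031788 UMIs in hepatocytes of hashtags 1, 2 and 3, and intervals (95%, exact Poisson or binomial) cover counting error only. A count of 0 was bounded at 3 counts. Alternatives covered hashtag calling, gates, depth limits, bins, scaling, filters, DESeq2 (1.42.0) and each mouse left out. Single barcodes are not replicates. The p-values rest on the spread between sums of 2 or 3 mice that the block leaves, and edgeR's estimate of it borrows from all genes.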

Additional observations from a re-analysis of the deposited data

Results flagged for a closer look

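Hashtags 1 and 2 are different groups in the deposited pairing only. From the baseline to the intermediate Nras bin they went opposite ways for 4 mitosis members and for the summed S phase and mitosis members. The D cyclins were not among these, and the differences were not tested. In hashtag 2 the mitosis members stood 1.60-fold over baseline (95% counting interval 1.47 to 1.74) and in hashtag 1 at a ratio of 0.114 (0.0643 to 0.186). The S phase members gave ratios of 1.36 and 0.726, Cdk1 1.88 and 0.163, and Ube2c 2.80 and 0.0777. Cdca3 gave 2.25 and Cdc20 1.61 in hashtag 2, and neither had a UMI in the intermediate bin of hashtag 1. Of the 693 mitosis UMIs of hashtag 2 in this bin, 615 came from 2 cells, and without mitosis-rich cells the bin stood at 13.2 CPM, below the 22.6 CPM of its baseline.

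Barcodes that passed no cell type gate, which no comparison uses, held 15 mitosis-rich cells among 295, or 5.08% (95% exact binomial interval 2.87 to 8.25), against 1.57% of hepatocytes. Their median depth was 8511 UMIs, against 3798 in hepatocytes. Hepatocytes of 3000 to 10000 UMIs had 2.41% (1.84 to 3.09) and those of 10000 to 20000 UMIs 3.55% (2.00 to 5.79). Conventional dendritic cells had 3.62% (2.33 to 5.34) and endothelial cells 3.44% (2.08 to 5.31). These intervals overlap that of the ungated barcodes.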

How the results depend on the processing

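Over 14 other settings Ccnd1 and Spc24 each kept their direction and call in the high bin, and Mcm6 did so in 13. Members called lower there numbered 4. With DESeq2's Wald test, the fixed hashtag rule, a hepatocyte gate of 5% or without mitosis-rich cells the number was 1. It was 7 with cells from 3000 UMIs or with quartiles of Nras, and 12 without the filter on low counts. Shares of all genes were not worked out for most settings of this section, so its counts cannot be set against them. The gate of 5% left 1 member called higher, in place of 3. In the intermediate bin (2 higher, 0 lower), 1 was higher with DESeq2's Wald test, the fixed rule or quartiles, while 5 were lower with quartiles, 2 without mitosis-rich cells and 1 without the filter. For depth (1 higher, 4 lower), 0 were higher at baseline Nras alone, and with the fixed rule or the gate of 5% 0 were called either way. Lower calls numbered 2 with cells of another gate kept, 2 without mitosis-rich cells, 0 with at least 2% mitochondrial UMIs and 2 to 6 when each mouse was left out in turn. For cell types (1 higher, 1 lower), DESeq2's Wald test and the fixed rule each gave 2 lower, cells of another gate kept 0 lower, the gate of 5% 0 higher and no filter 2 higher. Endothelial cells alone gave 0 higher and 13 lower (3 lower without mitosis-rich cells), and dendritic cells alone 2 higher and 23 lower (0 and 9 without them). With DESeq2's size factors dendritic cells gave 0 higher and 24 lower, and with library size alone endothelial cells gave 20 lower, with Ccnd1 at −0.55 (adjusted p 0.201). By mouse (0 higher, 0 lower), the fixed rule gave 2 lower (Ube2c and Cdk1) and the pairing of the methods 1. Both together gave 1 higher (Cdk1) and 3 lower (Cdkn3, Spc24 and Ccnb2), so that Cdk1 turned with the pairing. Mcm6 turned to −0.39 in the intermediate bin at the gate of 5% (adjusted p 0.802), Cdkn3 to 0.53 by depth with the fixed rule (0.659) and Ccnd2 to 0.23 between types without hashtag 3 (adjusted p of 1; range −1.71 to 0.23 over the mice left out). Fewer cells enter at the gate of 5%, and the hepatocyte markers on which it acts fell with Nras. The cause was not tested for any of these turns. Without the replicate block 3 members were higher and 3 lower in the high bin, where Birc5 lost its call (adjusted p 0.0716), and 1 and 3 by depth, and it changed no other count. Leaving out hashtag 1 or 2 by Nras leaves no residual degrees of freedom and was not run. Low counts limit the precision for the mitosis members, of which 8 of 15 had at most 3 UMIs in the high bins.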
